A study of Homo sapiens with 6 samples.

Results

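The pro-apoptotic genes of the BCL2 family were followed by RNA-seq in HK-2 cells after knockdown of INO80. HK-2 is an immortalized line of human renal proximal tubular cells, and INO80 is the ATPase of a chromatin remodeling complex that moves nucleosomes and acts on those that carry the histone variant H2A.Z. Members were taken by gene symbol, and all 10 of them were found among the 57905 genes of the table: PMAIP1, BBC3, BCL2L11, BID, BAD, BIK, BMF, HRK, BAX and BAK1. Of these, 9 had enough reads to be tested together with the 15343 genes tested in all, and HRK did not. The groups were 3 libraries of cells given control siRNA, a non-targeting pool, and 3 libraries of cells given INO80 siRNA, a pool against the INO80 mRNA. The submitters give the genotype of the control cells as WT and that of the INO80 siRNA cells as a knockdown. All cells were transfected with RNAiMAX and harvested after 48 h, so the knockdown is transient and in 1 cell line. Only RNA was measured here, so a level below is one of mRNA and not of protein.

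Proteins of the BCL2 family decide whether the outer membrane of the mitochondrion stays closed. BAX and BAK1 are the effectors: when activated they form oligomers that open this membrane and let cytochrome c out, after which caspases are activated. The pro-survival proteins, among them MCL1, BCL2L1 and BCL2, hold the effectors back. The BH3-only proteins sense stress and bind the pro-survival proteins, and some of them also activate BAX and BAK1 directly. PMAIP1, also called NOXA, binds mainly MCL1, whereas BBC3, also called PUMA, and BCL2L11, also called BIM, bind all the main pro-survival proteins. In the renal tubule this pathway is known for its part in the loss of tubular cells after ischemia. In the gene ontology column of the deposited table, all 10 members carried the term for positive regulation of cytochrome c release from mitochondria, which 22 genes of the table carry. Of the 10, 8 carried the term for the mitochondrial outer membrane.

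The feature that the members share is the BH3 motif, the short helix by which these proteins bind their partners. Its core is a leucine, any 3 residues, a small residue and an aspartate. The coding bases of this core are shown because all 10 members hold it, and other genes were not searched for it. Each line gives 30 bases of the GENCODE release 44 coding sequence of the canonical transcript, 5′ to 3′. The capitals mark the codons of the leucine, the small residue and the aspartate.
PMAIP1: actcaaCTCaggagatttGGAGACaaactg
BBC3: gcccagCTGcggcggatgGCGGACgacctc
BCL2L11: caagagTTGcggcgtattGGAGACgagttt
BID: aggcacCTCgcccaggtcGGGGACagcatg
BAD: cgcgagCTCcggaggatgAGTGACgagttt
BIK: ctgcggCTGgcctgcatcGGGGACgagatg
BMF: cgaaagCTTcagtgcattGCAGACcagttc
HRK: gcccggCTCaaggcgctaGGCGACgagctg
BAX: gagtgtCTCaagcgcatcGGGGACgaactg
BAK1: cggcagCTCgccatcatcGGGGACgacatc

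The small residue was glycine in 7 of the members, alanine in BBC3 and BMF, and serine in BAD. In PMAIP1, the shortest of the proteins with 54 residues, the core began at residue 29. BAK1, the longest, had 211 residues and its core began at residue 78. BID held a further match at residue 25, with serine as the small residue, and the match at residue 90 is the one printed.

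The promoter region of PMAIP1 was of interest to the study, which asked how INO80 acts there. The 250 bases before the RefSeq start of PMAIP1 lie at chr18:59899746-59899995 on the plus strand of GRCh38.p14, and 72.8% of them are G or C. They are shown with the 4 GC boxes, the letters GGGCGG on either strand, in capitals.
PMAIP1 upstream: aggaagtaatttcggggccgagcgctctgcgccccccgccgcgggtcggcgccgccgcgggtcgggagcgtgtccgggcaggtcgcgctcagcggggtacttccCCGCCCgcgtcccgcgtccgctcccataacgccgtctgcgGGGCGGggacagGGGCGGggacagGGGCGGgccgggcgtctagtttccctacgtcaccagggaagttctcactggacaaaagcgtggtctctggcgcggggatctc
These GC boxes begin 146, 106, 94 and 82 bases before the start, and the 3 nearest to it are spaced evenly. The same stretch of BBC3, the other member described at length below, lies at chr19:47232668-47232917 on the minus strand. It holds 49.2% G or C and no GC box, and the capitals mark its single E-box, the letters CACGTG, 232 bases before the start.
BBC3 upstream: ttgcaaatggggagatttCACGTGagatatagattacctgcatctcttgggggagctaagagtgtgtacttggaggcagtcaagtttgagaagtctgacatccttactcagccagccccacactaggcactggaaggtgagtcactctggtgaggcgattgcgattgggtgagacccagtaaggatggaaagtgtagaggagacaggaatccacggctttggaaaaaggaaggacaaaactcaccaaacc

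RefSeq promoter windows of 300 bases, from 250 before to 50 after the start, were at hand for 9 of the 10 members, in 15 windows, since some genes have several starts. A GC box was found in 12 of these 15 windows, which belong to 8 members, and 45.0% of the 35116 windows of all genes hold one. E-boxes were found in 4 of the 15, those of BBC3, BID and BAX, and in 7.26% of all windows. Windows of 1 gene overlap in part, so they are not independent. Neither of the E2F letters searched, TTTGGCGC (0.652% of all windows) and TTTCGCGC (0.515%), nor the CRE letters TGACGTCA (1.85%) were found in a window of a member. Both strands were searched for the exact letters only, and a match is a description of letters, not of binding. At shares this low, their absence from 15 windows does not show that E2F or CRE sites are lacking. The paper itself describes an E2F1 site in the promoter of PMAIP1.

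The targeted gene was checked first. INO80 mRNA was at 46.3, 49.3 and 54.0 CPM, the read count scaled to the library's size, in control siRNA replicates 1, 2 and 3, and at 13.8, 12.0 and 14.2 CPM in the INO80 siRNA replicates. The groups lay far apart, and on the log2 scale the change was -1.90 (edgeR, standard error 0.0956, adjusted p = 0.000161). Between 16829273 and 23784599 reads were counted on genes per library, with more in each INO80 siRNA library than in any control library. Of the proximal tubule markers, 2 of 11 had a mean level of at least 1 FPKM, the count scaled to the library's total and to the exonic length of the gene, namely GGT1 and MME, whereas LRP2, CUBN, SLC34A1 and AQP1 were at or near 0. Of the epithelial markers KRT8, KRT18, KRT19 and EPCAM were abundant and CDH1 was near 0. The marker lists of leukocytes, endothelium, podocytes and the distal nephron each summed to at most 0.41 FPKM in any library. Replicate 1 of both groups stood apart from the others: the 4 fibroblast markers summed to 116 FPKM there under control siRNA and to 101 FPKM under INO80 siRNA, and their lowest sums were 50.5 and 49.2 FPKM. Markers also differed between the groups, and 12 of the 31 were tested. Without the replicate number as a block 0 passed edgeR, where 1.75% of all tested genes did. With it 3 rose and 4 fell, where 11.4% of all tested genes rose and 13.4% fell. The blocked log2 fold change was -0.31 for EPCAM (adjusted p = 3.71e-06, groups without overlap) and -0.23 for KRT19 (adjusted p = 0.000232). It was -2.40 for the proximal tubule marker ALPL, under 1 FPKM in mean (adjusted p = 2.03e-05). Directions were mixed within the epithelial and the fibroblast list. The epithelial marker KRT18 rose by 0.19 on the log2 scale (adjusted p = 0.00102). Among fibroblast markers COL1A1 rose by 0.32 (adjusted p = 0.000102) and DCN by 0.32 (adjusted p = 0.00771), whereas LUM fell by 0.14 (adjusted p = 0.0124). The part of cell state or cell mixture in the results below was not tested.

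Levels of different genes were compared as FPKM, which corrects for the annotated exonic length of the gene and not for that of the transcript expressed. PMAIP1 and BAX were the most abundant members under control siRNA, with 33.7 ± 2.70 and 33.2 ± 0.642 FPKM (SD, n = 3), and their ranges overlapped. PMAIP1 stood at percentile 91.1 of the tested genes. BAK1 and BID followed at 20.6 ± 1.34 and 20.3 ± 0.323 FPKM, again with overlapping ranges, and then BAD at 9.59 ± 0.900 FPKM and BIK at 4.82 ± 0.582 FPKM. BCL2L11 (3.28 ± 0.168 FPKM) and BBC3 (2.58 ± 0.566 FPKM) overlapped each other, and BMF was the lowest of the tested members at 1.69 ± 0.252 FPKM. No other neighbours in this order overlapped in range.

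**Figure D1:**
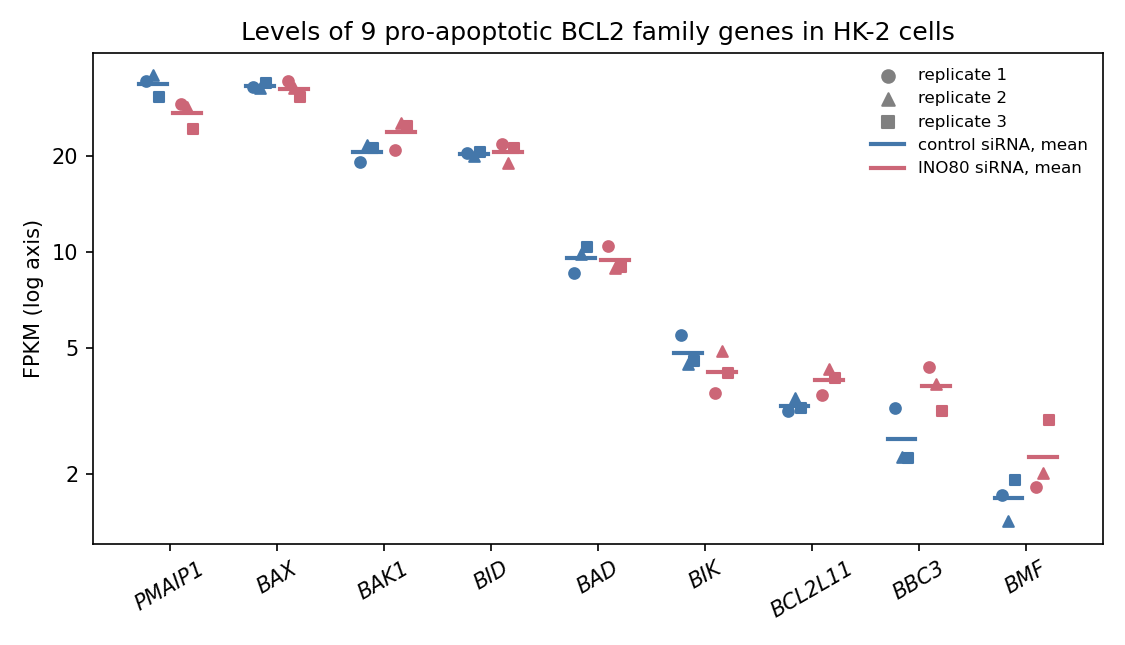
Level of each tested member in FPKM (log axis) in the 3 control siRNA libraries (blue) and the 3 INO80 siRNA libraries (red), one symbol for each replicate number, with the group mean as a bar. PMAIP1 and BAX head the order under control siRNA at 33.7 and 33.2 FPKM, and under INO80 siRNA their means are 27.4 and 32.6 FPKM.

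The order of the levels was kept under INO80 siRNA in its broad lines, with a shift at its top and at its lower end. BAX was at 32.6 ± 1.87 FPKM and PMAIP1 at 27.4 ± 2.60 FPKM, and these ranges no longer overlapped, from 30.7 to 34.4 FPKM for BAX and from 24.4 to 29.1 FPKM for PMAIP1. BAK1 (23.8 ± 2.43 FPKM) and BID (20.7 ± 1.45 FPKM) still overlapped. BIK, BCL2L11 and BBC3 came together at 4.20 ± 0.632, 3.94 ± 0.365 and 3.78 ± 0.602 FPKM, with overlapping ranges. BAD was at 9.43 ± 0.855 FPKM and BMF at 2.27 ± 0.609 FPKM.

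HRK, the BH3-only gene best known from neurons, was close to absent. Its raw counts were 4, 0 and 1 in the control siRNA libraries and 1, 3 and 5 in the INO80 siRNA libraries, where up to 3 counts are compatible with a library at 0, counting error alone considered. The groups overlapped, and no fold change is given.

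The comparison between the groups asked whether loss of INO80 changed the members. Without a term for the replicate number, 0 of the 9 tested members passed an adjusted p under 0.05 by edgeR, where 1.75% of all tested genes passed. At an unadjusted p under 0.05 there were 4, PMAIP1, BBC3, BCL2L11 and BAK1, against 16.4% of all tested genes. DESeq2 without the block also called 0, where 4.58% of its genes passed. The limma tests called 0 as well, and their share over all genes is not given here. Libraries of the same replicate number deviated together, and when this number was entered as a block, 5 of the 9 members (55.6%) passed, against 24.8% of all tested genes. PMAIP1 alone fell, or 11.1% of the members against 13.4% of all genes, and BBC3, BMF, BCL2L11 and BAK1 rose, or 44.4% against 11.4%. DESeq2 with the block called 2 members, PMAIP1 and BBC3, and 13.9% of its 12190 genes. The other blocked calls were lost there, with adjusted p = 0.137 for BCL2L11, 0.125 for BMF and 0.114 for BAK1. The median log2 fold change over the tested members was 0.01, and it was 0.01 over all tested genes. Replicates are libraries that the labels number, and nothing says that they came from separate cultures, so the p-values measure the spread between these libraries.

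**Figure D2:**
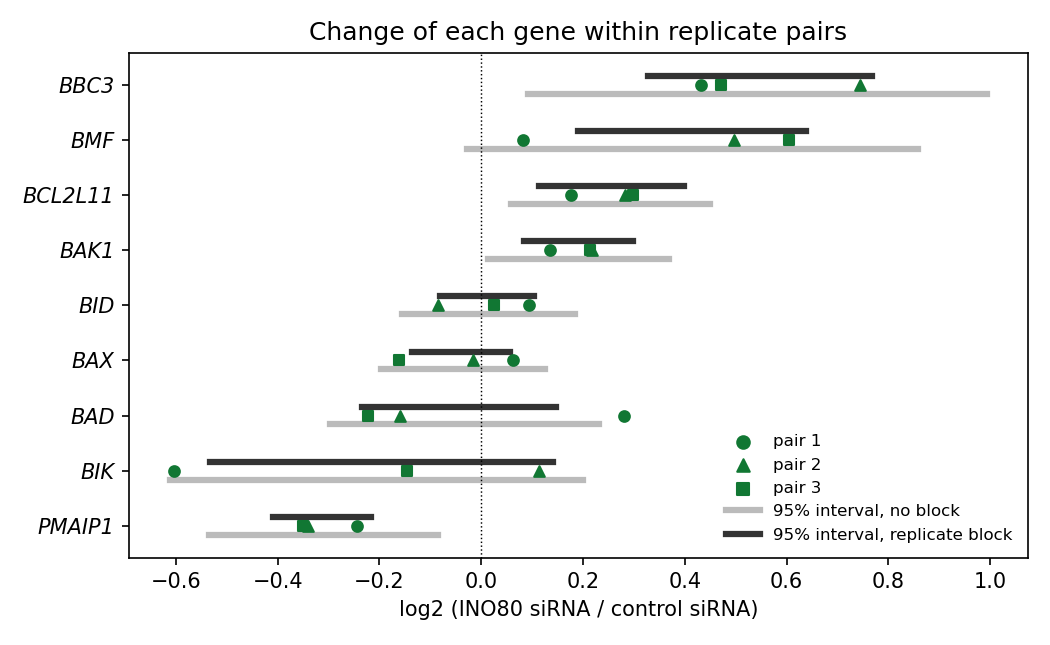
Log2 ratio of INO80 siRNA to control siRNA within each replicate pair (green symbols) and the 95% interval of the edgeR fold change without the block (grey) and with it (black), for the 9 tested members. The black intervals of BBC3, BMF, BCL2L11 and BAK1 lie above 0 and that of PMAIP1 below 0, and those of BID, BAX, BAD and BIK cover 0.

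PMAIP1 (ENSG00000141682, chromosome 18 from 57567180 to 57571538 on the plus strand, GRCh37) encodes the MCL1-binding BH3-only protein NOXA. Its mRNA was at 79.2, 79.8 and 68.2 CPM in control siRNA replicates 1, 2 and 3, and at 66.9, 63.0 and 53.5 CPM under INO80 siRNA. All 3 control libraries lay above all 3 INO80 siRNA libraries, and replicate 3 was the lowest of both groups. The means were 75.7 ± 6.55 and 61.1 ± 6.87 CPM (SD, n = 3 each). Without the block the log2 fold change was -0.31 (standard error 0.0982, 95% interval -0.53 to -0.09, adjusted p = 0.166), and the exact two-sided permutation test gave p = 0.1, the smallest that 3 libraries against 3 allow. Within the pairs the log2 ratios were -0.25, -0.34 and -0.35, so the ratio varied less than the levels themselves. With the block the estimate kept its size at -0.31, the standard error was 0.0471 and the adjusted p was 1.73e-05. The mRNA was thus 1.24-fold lower, a mean difference of -14.6 CPM. By quantitative PCR the paper reports the opposite direction, a rise of PMAIP1 mRNA after INO80 knockdown. The cause of this difference was not tested.

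For PMAIP1 the call rested on the block and not on a single pair. In blocked tests that left out pair 1, 2 or 3, the log2 fold change was -0.35, -0.30 and -0.29 and the adjusted p was 3.29e-10, 0.00020 and 0.000886. Leaving out any 1 of the 6 libraries without the block gave log2 fold changes from -0.38 to -0.22, with adjusted p from 0.125 to 0.419. With no filter on low counts, which keeps 29137 genes, the adjusted p of PMAIP1 was 0.0383 without the block, and 2.43% of those genes passed.

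BBC3 (ENSG00000105327, chromosome 19 from 47724081 to 47736023 on the minus strand) encodes PUMA, which binds every main pro-survival protein. It was at 10.6, 7.15 and 7.09 CPM under control siRNA and at 14.2, 12.0 and 9.82 CPM under INO80 siRNA. The groups overlapped because control replicate 1 lay above INO80 siRNA replicate 3, and replicate 1 was the highest of both groups, as it was for the fibroblast markers, whose part in the level was not tested. Within pairs the log2 ratios were 0.43, 0.74 and 0.47, all upward. The log2 fold change was 0.54 without the block (standard error 0.197, adjusted p = 0.219) and 0.55 with it (standard error 0.107, 95% interval 0.33 to 0.77, adjusted p = 0.000389). BBC3 had the largest change of the tested members in both edgeR tests, 1.46-fold upward without the block, at a level of 137 to 289 reads per library. Without pair 1 the blocked log2 fold change was 0.61 (adjusted p = 3.3e-05), without pair 2 it was 0.45 (adjusted p = 0.0110) and without pair 3 it was 0.58 (adjusted p = 0.00204).

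PMAIP1 and BBC3 therefore moved in opposite directions in each pair. The ratio of BBC3 to PMAIP1 FPKM, chosen after the values were seen, was 0.0935, 0.0629 and 0.0730 under control siRNA and 0.150, 0.134 and 0.129 under INO80 siRNA. Every INO80 siRNA library had a higher ratio than every control library. Summed over the 8 BH3-only genes, the level was 76.0 ± 2.15 FPKM under control siRNA and 71.7 ± 2.89 FPKM under INO80 siRNA. PMAIP1 made up 44.8%, 46.4% and 41.8% of this sum in the control libraries and 39.0%, 40.0% and 35.4% in the INO80 siRNA libraries. The share of BBC3 was small, 3.38 ± 0.696% against 5.25 ± 0.633%, and that of BID was 26.8 ± 1.12% against 28.8 ± 2.13%, with overlapping ranges. A share also depends on the other genes of the sum, and BID itself was at 20.3 and 20.7 FPKM in mean.

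**Figure D3:**
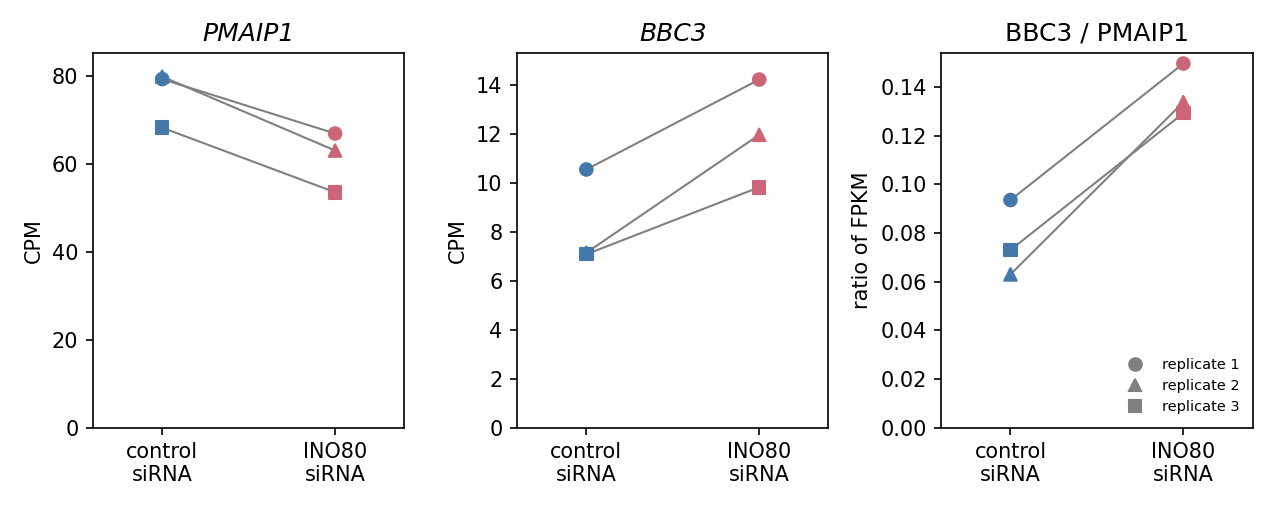
CPM of PMAIP1 (left) and BBC3 (middle) and the ratio of their FPKM values (right) in control siRNA and INO80 siRNA libraries, with a line joining the libraries of the same replicate number and all axes from 0. PMAIP1 goes down and BBC3 up in each of the 3 pairs, and the ratio goes from between 0.0629 and 0.0935 to between 0.129 and 0.150.

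BCL2L11 (ENSG00000153094, chromosome 2 from 111876955 to 111926024, plus strand) encodes BIM, a BH3-only protein that can activate BAX and BAK1 directly. It was at 21.5, 23.0 and 21.3 CPM under control siRNA and at 24.3, 28.0 and 26.2 CPM under INO80 siRNA. The groups did not overlap, although the lowest INO80 siRNA library, replicate 1, was close to the highest control library. On the log2 scale the change was 0.25 without the block (standard error 0.0854, adjusted p = 0.186) and 0.26 with it (standard error 0.0692, adjusted p = 0.00737). The blocked call depended on the pairs: without pair 2 the adjusted p was 0.0694 and without pair 3 it was 0.0817, with log2 fold changes of 0.24 and 0.23.

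BMF (ENSG00000104081, chromosome 15 from 40380091 to 40401093, minus strand) encodes a BH3-only protein that is tethered to the cytoskeleton through dynein light chain in healthy cells. It was at 9.64, 7.68 and 10.4 CPM under control siRNA and at 10.2, 10.8 and 15.8 CPM under INO80 siRNA. INO80 siRNA replicate 3 was well above the other libraries, and control replicate 3 lay above INO80 siRNA replicate 1, so the groups overlapped. The log2 ratios within pairs were 0.08, 0.50 and 0.60. The log2 fold change was 0.41 without the block (standard error 0.194, adjusted p = 0.340) and 0.41 with it (standard error 0.109, adjusted p = 0.00602), and the blocked value without pair 3 was 0.30 (adjusted p = 0.178). Without INO80 siRNA replicate 3 alone, the unblocked value was 0.19 (adjusted p = 0.725).

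BID (ENSG00000015475, chromosome 22 from 18216906 to 18257536, minus strand) encodes the BH3-only protein that caspase 8 cleaves into its active form. It was at 92.6, 87.7 and 90.3 CPM under control siRNA and at 98.9, 82.6 and 91.9 CPM under INO80 siRNA. The INO80 siRNA libraries enclosed all control libraries. The log2 fold change was 0.01 (95% interval -0.16 to 0.18 without the block, -0.08 to 0.10 with it; adjusted p = 0.949 and 0.899).

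BAD (ENSG00000002330, chromosome 11 from 64037302 to 64052176, minus strand) encodes a BH3-only protein held inactive by 14-3-3 proteins when phosphorylated. It was at 15.1, 16.7 and 17.5 CPM under control siRNA and at 18.3, 15.0 and 15.0 CPM under INO80 siRNA. The pairs disagreed in direction, with log2 ratios of 0.28, -0.16 and -0.22, and the blocked 95% interval ran from -0.23 to 0.15 (adjusted p = 0.792). BAD overlaps GPR137 on the opposite strand, which had a mean of 432 counts, and the strand setting of the counting is not given in the sources used here, so reads of the pair cannot be told apart with certainty.

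BIK (ENSG00000100290, chromosome 22 from 43506754 to 43525718, plus strand) encodes a BH3-only protein found mainly at the endoplasmic reticulum. It was at 5.37, 4.21 and 4.29 CPM under control siRNA and at 3.53, 4.55 and 3.88 CPM under INO80 siRNA. With 71 to 110 reads per library it was the least counted of the tested members, and its log2 ratios within pairs, -0.60, 0.11 and -0.15, disagreed in direction. The 95% interval of the log2 fold change ran from -0.61 to 0.20 without the block (adjusted p = 0.629) and from -0.53 to 0.14 with it (adjusted p = 0.428), and both include the value seen for PMAIP1.

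The effectors were abundant in both groups. BAX (ENSG00000087088, chromosome 19 from 49458072 to 49465055, plus strand) was at 87.7, 84.0 and 87.2 CPM under control siRNA and at 91.6, 83.1 and 77.9 CPM under INO80 siRNA. The coefficient of variation of the control libraries was 2.32%, and the INO80 siRNA libraries spread to both sides of them. The log2 fold change was -0.04, with a blocked 95% interval from -0.14 to 0.06 (adjusted p = 0.599; 0.855 without the block).

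BAK1 (ENSG00000030110, chromosome 6 from 33540329 to 33548019, minus strand), the effector that sits in the mitochondrial membrane from the outset, was at 44.5, 48.9 and 47.6 CPM under control siRNA and at 48.9, 56.8 and 55.3 CPM under INO80 siRNA. INO80 siRNA replicate 1 was barely above control replicate 2, and the other INO80 siRNA libraries lay clearly above all controls. The change on the log2 scale was 0.19 both without the block (standard error 0.0775, adjusted p = 0.269) and with it (standard error 0.0517, adjusted p = 0.00732). The blocked adjusted p was 0.0834 without pair 2 and 0.0784 without pair 3. The ratio of BAX to BAK1 FPKM was 1.61 ± 0.110 under control siRNA and 1.39 ± 0.222 under INO80 siRNA, and its ranges overlapped. The pseudogenes BAK1P1 and BAK1P2 share sequence with BAK1 and had means of 41.8 and 0.333 counts, so the BAK1 count carries some uncertainty.

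Among the tested members, 3 of 9 (33.3%) had groups without overlap in CPM, PMAIP1 downward and BCL2L11 and BAK1 upward, where 22.8% of all tested genes had such groups. For BAK1 the gap was very small, 48.89 CPM in INO80 siRNA replicate 1 against 48.85 CPM in control replicate 2. In FPKM the groups of BAK1 overlapped, with 20.97 in INO80 siRNA replicate 1 and 21.67 in control replicate 2. When each pair was left out of the blocked test, the count of members called was 5 without pair 1, 3 without pair 2 and 2 without pair 3. In the same tests 25.4%, 17% and 14.6% of all genes passed. PMAIP1 and BBC3 were called in all 3, BMF in 2, and BCL2L11 and BAK1 without pair 1 only.

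The pro-survival genes set the context for the members, since their proteins are what the BH3-only proteins bind. Of the 6 listed, 5 were tested, and BCL2L10 had no read. BCL2L1 (78.7 ± 2.60 FPKM under control siRNA) and MCL1 (74.3 ± 1.69 FPKM) were above every member in level. BCL2L2, which encodes BCL-w, was the single gene of the list called without the block, by edgeR and by DESeq2. Of all genes 1.75% passed edgeR and 4.58% passed DESeq2 without the block. BCL2L2 went from 40.0, 37.5 and 39.2 CPM to 21.6, 17.1 and 20.4 CPM, or by -0.98 on the log2 scale (edgeR, standard error 0.0984, adjusted p = 0.00581). BCL2L2 overlaps HOMEZ and PPP1R3E on the opposite strand, with means of 373 and 120 counts, and the readthrough gene BCL2L2-PABPN1 on its own strand, with a mean of 17.5 counts, so part of its reads may be shared. With the block BCL2 (log2 fold change 0.31, adjusted p = 8.36e-05), BCL2L1 (0.13, adjusted p = 0.00760) and MCL1 (0.11, adjusted p = 0.0154) rose, and BCL2A1, at 0.523 FPKM, had an adjusted p of 0.612. The blocked calls of MCL1 (adjusted p = 0.123 and 0.185 without pairs 2 and 3) and BCL2L1 (0.0596 without pair 3) depended on the pairs, and DESeq2 with the block did not call MCL1 (adjusted p = 0.0647). In all, 4 of the 5 were called by edgeR with the block, where 24.8% of all genes were. DESeq2 with the block called 3, and 13.9% of its genes. The median log2 fold change of the list without the block was 0.11 against 0.01 over all genes.

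PMAIP1 was set against MCL1, its main partner. The ratio of PMAIP1 to MCL1 FPKM was 0.477, 0.477 and 0.408 in the control libraries and 0.376, 0.349 and 0.294 in the INO80 siRNA libraries. All INO80 siRNA libraries lay below all control libraries, with means of 0.454 ± 0.0399 and 0.340 ± 0.0421. The coefficient of variation over the control libraries was 0.443% for MCL1 and 8.64% for PMAIP1 in CPM.

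Other BCL2-like and BH3-like genes were counted as a group of 11, of which 9 were tested. Without the block 0 passed edgeR, where 1.75% of all genes did, and 0 passed DESeq2, where 4.58% did. At an unadjusted p under 0.05 by edgeR there were 3, against 16.4% of all tested genes. With the block 5 passed edgeR, where 24.8% of all genes did. DESeq2 with the block called 1, BCL2L13, and 13.9% of its genes. In blocked edgeR MOAP1, which helps BAX to act (log2 fold change 0.28, adjusted p = 0.00144), BNIP3 (0.11, adjusted p = 0.0130), BNIP3L (0.12, adjusted p = 0.0170), both receptors for removal of mitochondria, and BCL2L12 (0.19, adjusted p = 0.0194) rose. With DESeq2 and the block the adjusted p of these 4 was 0.0501, 0.0579, 0.108 and 0.188. BCL2L13, also a mitophagy receptor, fell by 0.22 on the log2 scale (adjusted p = 0.00057). The median log2 fold change of the 9 was 0.08 without the block. BCL2L14 and BCL2L15 had too few reads to test. The effector-like gene BOK was at 40.7 FPKM under control siRNA, above BAX, and had a blocked adjusted p of 0.847.

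Of 12 transcription factors known to act on members, 9 were tested and TP63, TP73 and FOXO1 had too few reads. None of the 9 passed edgeR without the block, where 1.75% of all genes did, and DESeq2 called 1, E2F1, and 4.58% of its genes. At an unadjusted p under 0.05 by edgeR there were 2, against 16.4% of all tested genes. With the block 4 of the 9 passed edgeR, where 24.8% of all genes did, and 3 passed DESeq2, where 13.9% did. E2F1 went from 61.4, 66.9 and 67.9 CPM to 80.9, 82.0 and 78.3 CPM, without overlap, with a log2 fold change of 0.30 (adjusted p = 0.0566 without the block, 4.06e-05 with it). With the block MYC also rose (0.11, adjusted p = 0.0379, but 0.167 with DESeq2 and the block), and JUN and HIF1A fell by 0.25 and 0.19 on the log2 scale (adjusted p = 2.23e-05 and 4.06e-05). The median of the 9 was 0.0011 without the block. These changes stood beside those of PMAIP1 and BBC3, and the part of the factors in either was not tested.

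Partners of the member proteins numbered 10, all tested. Without the block 0 passed edgeR, where 1.75% of all genes did, and 0 passed DESeq2, where 4.58% did. At an unadjusted p under 0.05 by edgeR there was 1, against 16.4% of all tested genes. With the block 4 passed edgeR, where 24.8% of all genes did. DESeq2 with the block called 2 of them, USP9X and YWHAZ, and 13.9% of its genes. It gave HUWE1 an adjusted p of 0.0869 and DYNLL2 of 0.219. The deubiquitinase USP9X, which stabilizes MCL1, fell by 0.18 on the log2 scale (adjusted p = 0.000295). The ubiquitin ligase HUWE1, which acts on MCL1 in the other direction, fell by 0.11 (adjusted p = 0.0256), and YWHAZ, a 14-3-3 protein that holds BAD, fell by 0.10 (adjusted p = 0.0115). DYNLL2, the light chain that holds BMF, rose by 0.10 (adjusted p = 0.0463). Of 5 proteins released from mitochondria, CYCS, DIABLO, HTRA2, AIFM1 and ENDOG, 0 passed either edgeR test, also 0 at an unadjusted p under 0.05 without the block and 0 by DESeq2 with or without it. Over all genes 1.75% passed edgeR without the block, 24.8% with it and 16.4% at the unadjusted p. By DESeq2 4.58% passed without the block and 13.9% with it. With only 5 genes, counts of 0 are not read as a result about this list. The median was -0.04 without the block for the partners and likewise -0.04 for the released proteins. Nearest to the threshold among the latter was HTRA2, with a blocked adjusted p of 0.0506.

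**Figure D4:**
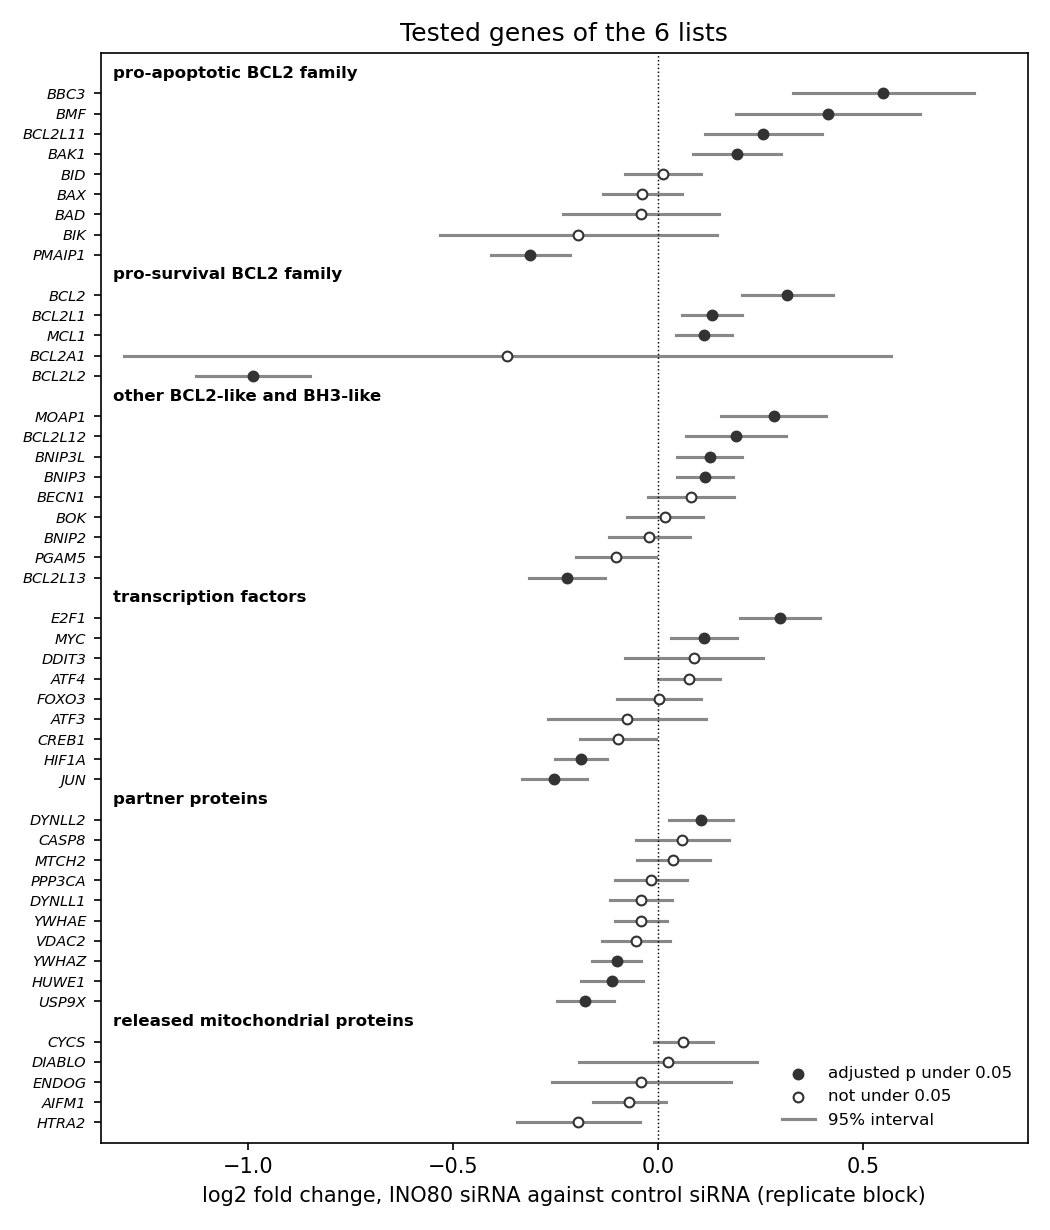
Blocked edgeR log2 fold change (INO80 siRNA against control siRNA) of every tested gene of the members and the 5 other lists, with its 95% interval, filled where the adjusted p was under 0.05. Among the members PMAIP1 lies lowest at -0.31 and BBC3 highest at 0.55, and BCL2L2, at -0.99, lies farthest from 0 of all genes shown.

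The genes whose profile over the 6 libraries was most like that of PMAIP1, among 9729 genes of at least 10 CPM, were MYL6B (Pearson r = 0.993), OTUB2 (0.990), DDHD1 (0.990), CD109 (0.990) and SUMO2 (0.990). These correlations describe 6 libraries that fall into 2 groups and share their replicate pairs, and they carry no test. The log2 fold changes of these genes were -0.12, -0.33, -0.36, -0.41 and -0.09, all in the direction of PMAIP1, which the choice of genes fixes.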

How the data were processed

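RNA-seq of poly-A selected RNA from 6 HK-2 libraries was analysed. The authors deposited 1 table with a raw read count and an FPKM value for each gene and library. Counts carry no normalization, and all 347430 deposited FPKM values equal the value recomputed from counts, library totals and exonic lengths, within 0.0051. The submitters' processing notes name HISAT2 2.0.1, HTSeq and hg19, and the table's coordinates are those of GRCh37. The paper's methods name another aligner and build, and the strand setting of the counting is not given in the sources used here. The libraries were made with a directional kit.

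Counts were tested in R 4.3.3 with edgeR 4.0.16 (filterByExpr, TMM, quasi-likelihood test, treatment alone), with Benjamini-Hochberg adjustment over all 15343 genes tested and a threshold of 0.05 with no fold limit. The standard error is the absolute log2 fold change over the square root of F. CPM uses TMM-scaled library sizes. FPKM serves comparisons between genes. The median log2 fold change of all genes was 0.0066 with TMM, 0.0038 with median-ratio scaling and 0.016 by total count.

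The pairing of libraries by replicate number was checked through their deviations from the group means across genes: the correlation was 0.569, 0.351 and 0.349 for equal numbers and at most 0.151 for different ones, so the blocked value is given wherever it changes a call. The deviations of a group sum to 0 for each gene, so these correlations depend on each other. With replicate 1 apart in both groups, replicates 2 and 3 also correlated across numbers, at 0.151 and 0.135. The labels do not say what a number stands for. DESeq2 1.42.0, limma 3.58.1 on log2(FPKM + 0.1) and log2(FPKM + 1), other filters and scaling, and leaving out libraries or pairs were alternatives. The edgeR step was tested on simulated data.

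All 10 members are named. From each other list, genes with an adjusted p under 0.05 with or without the block are named, up to 6 by blocked p, with MCL1, BCL2L1, BCL2L2, BCL2 and E2F1 always, and the 5 genes most like PMAIP1. Others, among them BCL2A1, BCL2L10, BOK and HTRA2, were named after their values were seen. Members and lists were chosen with earlier results of these data known. Coding bases came from GENCODE 44 and promoters from RefSeq (GRCh38.p14), read with Python 3.11.15 and Biopython 1.88. The protein, PCR and tissue measurements of the study were not analysed here.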

Additional observations from a re-analysis of the deposited data

How the results depend on the processing

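The number of members called was 0 with edgeR, and stayed 0 with median-ratio scaling, with only the genes whose mean FPKM reached 1, with DESeq2, with limma on log2(FPKM + 0.1) or log2(FPKM + 1), and without any 1 library. It was 2 with no filter on low counts, 5 with the replicate block, 2 with DESeq2 and the block, and between 2 and 5 with the block without 1 pair, lowest without pair 3. Without the block, the share of all genes passing was 1.75% with edgeR, 2.43% with no filter and 4.58% with DESeq2. With the block it was 24.8% with edgeR and 13.9% with DESeq2. In blocked edgeR without pair 1, 2 or 3 it was 25.4%, 17% and 14.6%. This share is not given for median-ratio scaling, the FPKM filter, limma and the tests without 1 library. Their counts of 0 can therefore not be set against it. Over all genes the block moved the count from 268 to 3798 (2050 lower, 1748 higher). The log2 fold change of PMAIP1 was -0.30 with no filter (adjusted p = 0.0383), -0.31 with the block (adjusted p = 1.73e-05), -0.31 with DESeq2 and the block (adjusted p = 0.000451) and between -0.35 and -0.29 with the block without 1 pair. It kept its direction in all 17 alternatives run. Without the block, leaving out 1 library turned the sign of 3 uncalled genes: BID ranged from -0.047 to 0.081, BAD from -0.13 to 0.02 and BAX from -0.10 to 0.02. In single steps BID was at -0.0055 without control siRNA replicate 2 and -0.047 without INO80 siRNA replicate 1, BAD at 0.011 without control siRNA replicate 3, 0.017 without INO80 siRNA replicate 2 and 0.015 without replicate 3, and BAX at 0.018 without INO80 siRNA replicate 3. With the block and 1 pair left out, BID reached -0.034 (pair 1), BAD 0.018 and 0.053 (pairs 2 and 3) and BAX 0.024 (pair 3). The cause was not tested. With 3 libraries a group, the standard errors without the block were largest for BBC3, BMF and BIK (0.197, 0.194 and 0.178), the least counted of the tested members.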
